A study of Mus musculus with 2 samples.

Results

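The genes described here are 46 molecular chaperones, protein-folding enzymes and unfolded protein response (UPR) genes, out of 55536 genes measured, of which 22028 are protein-coding. The rule is a list of symbols, matched to GENCODE release M21 on mm10, and applies no threshold to measured values; all 46 were present. The symbol Ddit3 stands at 2 identifiers, 1 of which held no reads, so the 46 symbols correspond to 47 identifiers. They were placed in 9 groups by role: cytosolic Hsp70 and Hsp110 proteins, cytosolic Hsp90 with its adaptor Stip1, J proteins, the heat shock factor with a small heat shock protein and Bag3, subunits of the chaperonin TRiC, mitochondrial chaperones, the Hsp70 and Hsp90 of the endoplasmic reticulum (ER) with their partners, ER lectin chaperones with disulfide isomerases, and UPR sensors and factors.

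The samples are poly(A) RNA of activated regulatory T cells, a class of CD4 T cell that is defined by the factor Foxp3 and that keeps other immune cells in check. They were taken from a male mouse of strain Foxp3CreERT2 x Rosa26YFP aged 4 months, in which a tamoxifen-inducible Cre is driven from Foxp3 and a yellow fluorescent reporter sits at Rosa26. The labels name a bone marrow hematopoietic cell as origin, and say nothing of the sort or of the activating stimulus. There was 1 group of 2 libraries, technical replicates 1 and 2 of biological replicate 1, and no unstimulated, heated or otherwise stressed sample with which to compare. Errors below are SDs over these 2 technical libraries (n = 2) and say nothing of the spread between animals.

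Library 1 held 15076048 estimated gene reads, each gene rounded, and library 2 held 14635787. T cell markers (Cd3e, Cd3g, Cd4 and Trac) summed to 4590 and 4821 TPM in libraries 1 and 2, where TPM is a relative transcript level scaled by transcript length. Regulatory T cell markers (Foxp3, Il2ra, Ikzf2 and Ctla4) summed to 945 and 978 TPM, so both lists were present. Ikzf2 gave the most, at 471 and 466 TPM, while Foxp3 itself was at 23.8 and 20.9 TPM. The lists of other cells had lower sums. The B cell list summed to 38.2 and 42.9 TPM, most of it Cd79b, which at 36.3 and 40.7 TPM was above Foxp3. The CD8 T and NK cell list summed to 12.5 and 17.6 TPM, and the myeloid list to 3.99 and 6.04 TPM. Since this is bulk RNA, a gene at a high level in few cells and one at a low level in all cells cannot be told apart.

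Chaperones bind unfolded stretches of other proteins and release them in cycles driven by ATP. Hsp70 proteins take substrates from J proteins, Hsp90 receives a part of them through Stip1, and the ring-shaped chaperonins enclose others. Some of these genes are transcribed at all times and others almost only after heat or proteotoxic stress, when the factor Hsf1 binds heat shock elements in their promoters. In the ER, unfolded protein activates the sensors Ern1 (IRE1), Eif2ak3 (PERK) and Atf6. IRE1 removes a short stretch from Xbp1 mRNA, PERK raises translation of Atf4 and with it transcription of Ddit3, and cleaved ATF6 together with spliced XBP1 switches on ER chaperone genes. Lymphocytes that secrete large amounts of protein, plasma cells above all, are known for strong use of this pathway.

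Most of the 46 genes were expressed. Averaged over both libraries, 43 reached 1 TPM, 37 reached 10 TPM and 23 reached 100 TPM. Their median level was 97.8 TPM, beside 17.4 TPM for the 10422 protein-coding genes at 1 TPM or more. Together they summed to 8364 TPM in library 1 and 8958 TPM in library 2. The 3 genes under 1 TPM were Hspa1a, Hspa1b and Hspb1, all heat-inducible. Other genes that rise with heat or stress were well above it, among them Hsp90aa1, Dnajb1, Hsph1 and Bag3, described below by group. By role, the cytosolic Hsp70 and Hsp110 proteins took 30.7% of the summed TPM, nearly all of it Hspa8. This first place depends on the count used: in the authors' whole-number counts, unscaled by length, the same group took 3.40% and TRiC, at 32.2%, was first. By TPM, ER lectin chaperones and disulfide isomerases took 18.6%, TRiC subunits 18.2%, cytosolic Hsp90 with Stip1 10.6%, the ER Hsp70 and Hsp90 group 8.51% and the J proteins 7.05%. Mitochondrial chaperones took 3.29%, UPR sensors and factors 2.67%, and the group of Hsf1, Hspb1 and Bag3 took 0.426%.

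**Figure D1:**
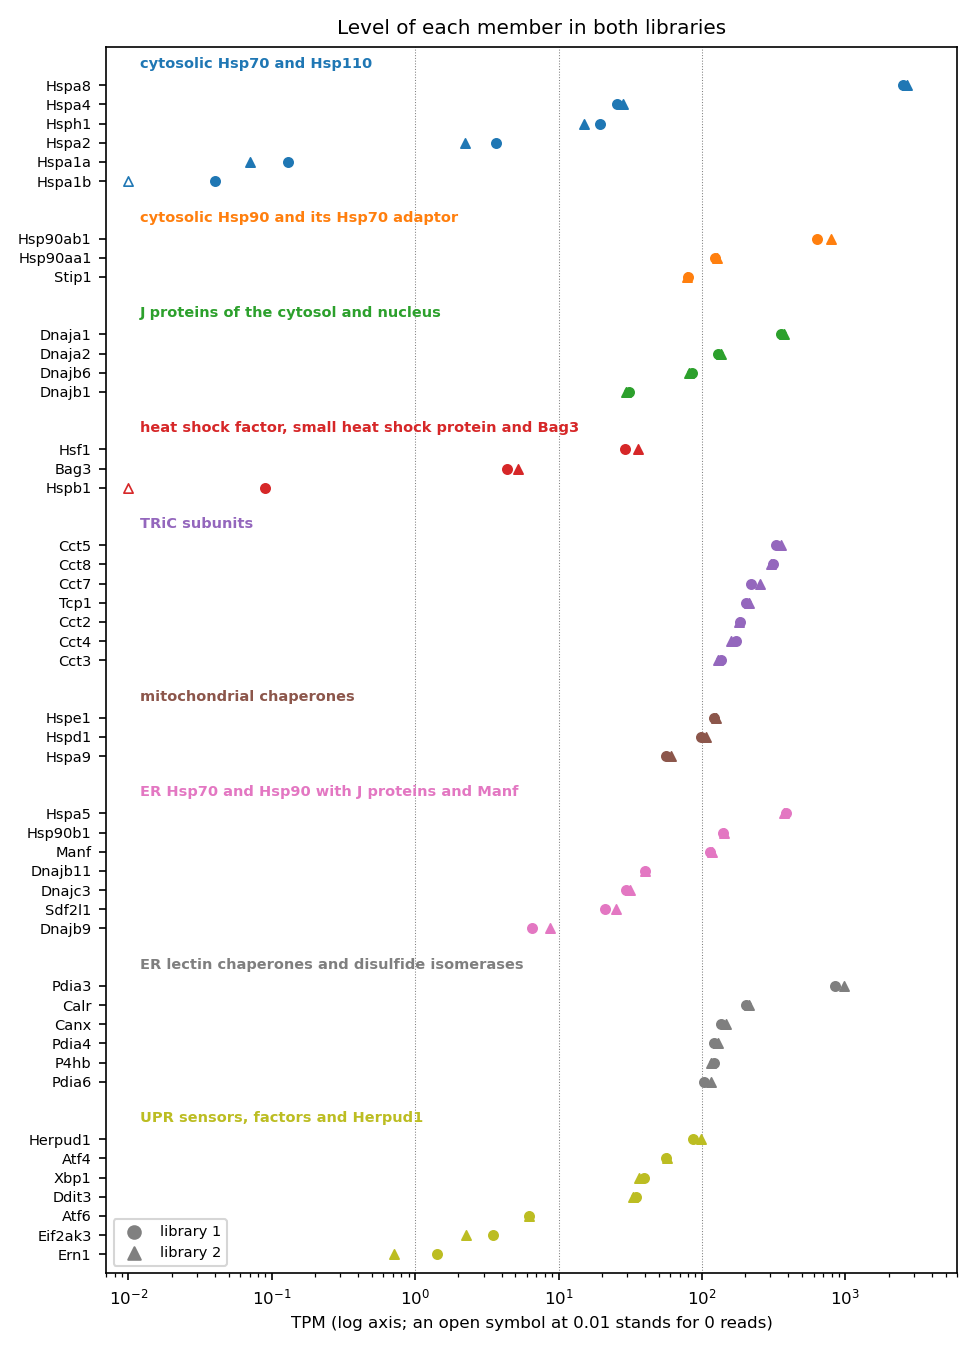
TPM (log axis) of the 46 genes, in 9 groups by role and ordered by mean level within each group. Circles are library 1, triangles library 2, and an open symbol at the left edge stands for a library with 0 reads; Hspa8 lies at 2517 and 2708 TPM and Hspa1a, Hspa1b and Hspb1 lie under 1 TPM.

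Within the cytosolic Hsp70 family the constitutive gene and the heat-inducible pair stood at opposite ends by TPM. Hspa8, the constitutive Hsp70 (HSC70; chr9:40800984-40810087, plus strand), measured 2517 TPM in library 1 and 2708 TPM in library 2, which placed it at the 99.8th percentile of protein-coding genes. Hspa1a (chr17:34969190-34972156, minus strand), which codes for heat-inducible Hsp70, measured 0.13 and 0.070 TPM, from 4.79 and 2.41 estimated reads. Its near-identical neighbour Hspa1b (chr17:34956436-34959238, minus strand) measured 0.040 TPM in library 1, from 1.51 reads, and 0 in library 2. A level of 3 reads, the one-sided upper limit used here for a count of 0, would be 0.0931 TPM for Hspa1b in library 2. Hspa8 was thus 14809 times the sum of Hspa1a and Hspa1b in library 1 and 38684 times in library 2. With 6 and 2 reads in the denominator, the exact Poisson 95% intervals ran from 6804 to 40353 in library 1 and from 10709 to 319430 in library 2, which overlap. These intervals and limits cover counting error only. In the whole-number counts Hspa8 had 522 and 515, Hspa1a 0 and 1, and Hspa1b 0 in both libraries. The size of the ratio thus depends on the count used, and the intervals do not cover this.

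The promoters of the pair are shown because the genes are copies of one another and both hold a match to 2 heat shock units. The 250 bases before the RefSeq start of each gene (GRCm38.p6) are printed 5′ to 3′ in the gene's direction, with a match to 2 inverted heat shock units (GAANNTTC) and the CCAAT box (written ATTGG on this strand) in capitals:
Hspa1a (chr17:34972157-34972406, minus strand): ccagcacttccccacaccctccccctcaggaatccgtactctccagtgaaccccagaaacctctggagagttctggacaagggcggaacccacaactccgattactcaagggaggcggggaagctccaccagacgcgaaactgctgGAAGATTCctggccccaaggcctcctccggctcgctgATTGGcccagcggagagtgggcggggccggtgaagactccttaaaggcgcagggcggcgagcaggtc
Hspa1b (chr17:34959239-34959488, minus strand): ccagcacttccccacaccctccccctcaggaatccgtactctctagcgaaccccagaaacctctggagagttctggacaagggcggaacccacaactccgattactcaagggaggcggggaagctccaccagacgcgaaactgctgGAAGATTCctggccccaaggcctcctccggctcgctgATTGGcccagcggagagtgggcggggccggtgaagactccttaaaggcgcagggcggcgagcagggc
The 2 stretches were 98.8% identical. They differed at 3 positions, counted from 1 at the 5′ end with the Hspa1a base first: C44T, T47C and T249G. The heat shock match and the CCAAT box were the same in both. The transcripts are likewise alike: 66.3% of the 50-base words of Hspa1a and 62.3% of those of Hspa1b occur in another gene, so the split of the few reads between the 2 is uncertain.

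The other members of the family were intermediate by TPM. Hspa4 (Apg-2), an Hsp110 protein that exchanges nucleotide on Hsp70, measured 25.5 and 28.04 TPM in libraries 1 and 2. Hsph1 (Hsp105), another Hsp110, measured 19.4 and 15.1 TPM. Hspa2, an Hsp70 best known from testis, measured 3.65 and 2.21 TPM, from 112 and 64 reads. By TPM the order Hspa8, Hspa4, Hsph1, Hspa2 and then the Hspa1a and Hspa1b pair held in both libraries. The counting intervals of the pair overlapped, so these are not ordered. Transcripts not annotated as protein-coding held 63.9% and 67.8% of the TPM of Hspa4, beside 9.66% and 11.7% for Hsph1. In whole-number counts, unscaled by length, Hspa4 (617 and 597) was above Hspa8 (522 and 515). Each gene except Hspa8 and Hspa4 was higher in library 1 by TPM.

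The cytosolic Hsp90 genes showed a like order, with the constitutive form above the inducible one. Hsp90ab1 (Hsp90 beta; chr17:45567775-45573271, minus strand) measured 632 and 793 TPM, and Hsp90aa1 (Hsp90 alpha, the form that rises with stress) measured 123 and 126 TPM. The ratio of beta to alpha was 5.14 in library 1 and 6.28 in library 2 (5.71 ± 0.81). Stip1 (Hop), which bridges Hsp70 and Hsp90, was at 79.3 and 78.3 TPM. The gap between libraries for Hsp90ab1 was the widest of the 3 genes.

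The J proteins, which bring substrates to Hsp70 and start its ATP cycle, were led by Dnaja1 at 358 and 371 TPM. Dnaja2 followed at 130 and 135 TPM, and Dnajb6 at 85.6 and 81.3 TPM. Dnajb1 (Hsp40), the J protein that rises with heat, was the lowest of the 4 at 30.8 and 29.5 TPM, well above the heat-inducible Hsp70 pair. Hsf1, the factor that drives the heat shock response, was at 28.8 and 35.5 TPM. Bag3, a nucleotide exchange factor that steers Hsp70 clients to autophagy, was at 4.36 and 5.24 TPM. Hspb1 (Hsp25), a small heat shock protein, had 1 read in library 1 and 0 in library 2, under the limit of 3 reads (0.283 and 0.295 TPM).

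The TRiC subunits were expressed within a narrow band. TRiC is the cytosolic chaperonin that folds actin and tubulin, and its subunits are assembled into the same double ring. All 7 in the set lay above 100 TPM. Cct5 was highest at 327 and 354 TPM, followed by Cct8 at 312 and 303 TPM. Cct7 measured 220 and 253 TPM, Tcp1 202 and 211 TPM, Cct2 185 and 180 TPM, Cct4 171 and 160 TPM, and Cct3 136 and 130 TPM. The order was the same in both libraries and the highest subunit was 2.56 ± 0.22 times the lowest.

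By TPM the mitochondrial chaperones were lower than the cytosolic ones that lead their families. Hspe1 (Hsp10, the lid of the chaperonin) measured 122 and 125 TPM, Hspd1 (Hsp60, its barrel) 98.8 and 107 TPM, and Hspa9 (mortalin, the mitochondrial Hsp70) 56.0 and 61.2 TPM. Hspd1 and Hspe1 lie head to head on chromosome 1, on opposite strands, and the ratio of Hspd1 to Hspe1 was 0.83 ± 0.032. That order holds per length of transcript only: by estimated reads, unscaled, Hspd1 was 2.53 times Hspe1. In whole-number counts, also unscaled, Hspa9 (994 and 1057) was above cytosolic Hspa8 (522 and 515).

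In the ER, the Hsp70 of the compartment, Hspa5 (BiP, also GRP78; chr2:34771970-34777547, plus strand), measured 385 and 373 TPM, at the 98.7th percentile of protein-coding genes. Its ratio to cytosolic Hspa8 was 0.15 ± 0.011. Hsp90b1 (GRP94), the ER Hsp90, measured 140 and 141 TPM, or 0.37 ± 0.011 of Hspa5. Manf, a secreted ER stress protein that binds BiP, was at 113 and 117 TPM. The partners of BiP were lower: the J protein Dnajb11 (ERdj3) at 40.0 and 40.2 TPM, Dnajc3 (p58IPK, which also restrains PERK) at 29.5 and 31.4 TPM, Sdf2l1, which acts with Dnajb11, at 21.01 and 25.09 TPM, and Dnajb9 (ERdj4, which restrains IRE1) at 6.55 and 8.75 TPM. The 7 genes kept this order in both libraries.

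Among the lectin chaperones and disulfide isomerases, Pdia3 (ERp57; chr2:121413775-121438687, plus strand) stood far above the rest, at 848.1 and 975.3 TPM. It forms disulfide bonds in glycoproteins and is a part of the complex that loads peptide onto MHC class I. Calr (calreticulin), its lectin partner, measured 204 and 212 TPM, and the membrane-bound lectin Canx (calnexin) 135 and 146 TPM. Pdia4 measured 121 and 130 TPM, P4hb (PDI itself, also a subunit of the collagen prolyl hydroxylase) 121 and 116 TPM, and Pdia6 103 and 116 TPM. The ranges of Pdia4 and P4hb overlapped, as did those of P4hb and Pdia6, so these are not ordered. By TPM, Pdia3, Calr and Canx were apart from each other and from the rest. Below Pdia3 this order depends on the count used. By estimated reads, unscaled by length, Canx (6299 and 6414) was above Calr (4654 and 4619). In whole-number counts Canx (822 and 897) was the lowest of the group, and Pdia3 (3101 and 3125) was first, followed by Pdia4 (1864 and 1957). Plasma cells are rich in this machinery, so their markers are given beside it: 5 of the 6 were under 1 TPM, with Mzb1 at 0 reads in both libraries, Sdc1 at 0 and 0.19 TPM and Jchain at 0.18 and 0.25 TPM. The list's sums of 20.8 and 20.2 TPM came almost wholly from Irf4 (19.99 and 18.92 TPM), a factor that activated T cells also express.

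The UPR sensors were low and the factors downstream of them higher. Atf6 measured 6.22 and 6.21 TPM, Eif2ak3 3.49 and 2.25 TPM, and Ern1 1.41 and 0.71 TPM, the last from 85 and 51 reads. Of the factors, Atf4 measured 56.3 and 57.3 TPM, Xbp1 39.6 and 36.4 TPM, and Ddit3 (CHOP, which promotes cell death under lasting stress) 34.6 and 32.9 TPM. Ddit3 was 0.59 ± 0.029 of Atf4 per length, and 0.289 of it by estimated reads. Herpud1, a part of the machinery that removes misfolded ER proteins and a target of this response, was highest of the group at 87.2 and 97.9 TPM. For Atf4 and Xbp1 the regulated steps, translation and splicing by IRE1, are not read by a gene's RNA level.

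The site of IRE1 splicing is shown because it determines the protein that Xbp1 mRNA encodes. It lies in exon 4 of transcript Xbp1-201, within the coding sequence. The stretch is printed 5′ to 3′ (GRCm38, chr11:5524262-5524327, plus strand), with the 26 bases that IRE1 removes in capitals (chr11:5524282-5524307):
Xbp1: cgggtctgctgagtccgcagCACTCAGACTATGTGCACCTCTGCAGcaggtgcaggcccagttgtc
Xbp1-201 held 90.9% of the gene's TPM in library 1 and 88.9% in library 2. All 3 protein-coding Xbp1 transcripts in GENCODE M21 contain the 26 bases, and no Xbp1 transcript there joins the flanks. The deposited transcript values therefore do not separate spliced from unspliced Xbp1.

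Promoter sequence was available from RefSeq (GRCm38.p6, from 250 bases before to 50 after each start) for 38 of the 46 genes. Atf6, Cct4, Hsf1, Hsp90aa1, Hsp90ab1, Hspa8, Hspa9 and Manf had no entry. Motifs were searched on both strands as exact letters in all 32851 windows of 300 bases. The ER stress element, CCAAT and CCACG with any 9 bases between them, was found in 39 windows (0.119%), those of 37 genes, and 6 of these genes are in the set: Hspa5, Hsp90b1, Dnajc3, Calr, Canx and Pdia6. The shorter ER stress element II, ATTGG and CCACG with any 1 base between them, was found in 12 windows (0.0365%), among them those of Dnajb11 and Herpud1. Both contain a CCAAT box, which alone is common. It was in 37.4% of windows, those of 41.1% of all genes with a window, and in 27 of the 38 genes (71.1%). The matches are printed with up to 5 flanking bases, 5′ to 3′ in the gene's direction, with the element in capitals (GRCm38.p6):
Hspa5 (chr2:34772020-34772048, plus strand): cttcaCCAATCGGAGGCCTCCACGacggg
Hsp90b1 (chr10:86705528-86705661, minus strand, 2 matches): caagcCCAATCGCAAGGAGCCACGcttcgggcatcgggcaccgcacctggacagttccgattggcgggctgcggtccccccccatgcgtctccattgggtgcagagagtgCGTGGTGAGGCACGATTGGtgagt
Dnajc3 (chr14:118937822-118937850, plus strand): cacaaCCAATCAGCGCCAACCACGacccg
Calr (chr8:84847070-84847098, minus strand): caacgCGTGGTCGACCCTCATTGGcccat
Canx (chr11:50325795-50325823, minus strand): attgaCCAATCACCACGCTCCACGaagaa
Pdia6 (chr12:17266486-17266514, plus strand): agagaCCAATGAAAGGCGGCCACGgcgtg
Dnajb11 (chr16:22857852-22857862, plus strand, past the start): ATTGGCCCACG
Herpud1 (chr8:94386372-94386392, plus strand): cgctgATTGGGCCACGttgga
In Calr, and in the second match of Hsp90b1, the element runs in the opposite direction to the gene. GENCODE M21 places the Hspa5 element in the UTR of Hspa5-201, a minor transcript, and the Dnajb11 element in the UTR of Dnajb11-201; the other stretches lie in no annotated UTR or coding sequence. Among the 13 ER and Herpud1 genes with a window, the 8 with either element had a median of 125 TPM (30.5 to 379 TPM) and the 5 without had a median of 118 TPM (7.65 to 912 TPM). The highest of all, Pdia3, and the lowest, Dnajb9, both had neither match in their window, so the levels of the 2 sets overlapped.

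Heat shock elements were searched as 3 alternating units, GAA, TTC and GAA with any 2 bases between each, and as 2 units, GAANNTTC. The longer form was found in 198 windows (0.603%), those of 0.662% of all genes with a window. The shorter form, which is contained in the longer, was found in 2582 windows (7.86%), those of 9.04% of all genes with a window. Of the 38 genes, 4 had the longer form (Hsph1, Dnajb6, Hspe1 and Hspd1) and 10 the shorter, the other 6 being Hspa1a, Hspa1b, Hspb1, Bag3, Cct2 and Dnaja1. The longer matches are shown in the same way:
Hspe1 (chr1:55088054-55088081, plus strand, 2 overlapping matches): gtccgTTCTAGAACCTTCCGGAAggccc
Dnajb6 (chr5:29735847-29735869, plus strand): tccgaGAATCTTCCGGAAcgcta
Hsph1 (chr5:149636288-149636300, minus strand, past the start): TTCTGGAAAGTTC
The Hspe1 element lies before the start of Hspe1 and is also the match found in 1 of the Hspd1 windows, while GENCODE M21 places it in the UTR of the longer transcript Hspd1-202. The Dnajb6 element lies in the UTR of Dnajb6-201, overlapping Gm5129 on the other strand, and the Hsph1 element in the UTR of Hsph1-211. Genes with a heat shock match spanned a wide range of levels, from Dnaja1 at 364 ± 8.90 TPM to Hspa1b at 0.020 ± 0.028 TPM. Of the genes at higher levels, Hspa8 and Hsp90ab1 had no window and were not searched, and Pdia3 and Hspa5 had no match. Of 2 further motifs, TGATGCAA (bound by ATF4 with C/EBP factors) was found in 0.895% of windows and in the set only at Herpud1, and TGACGTGG (a core bound by XBP1 and ATF6) in 0.676% of windows and in none of the 38 genes. A match describes these letters only, and binding was not measured.

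**Figure D2:**
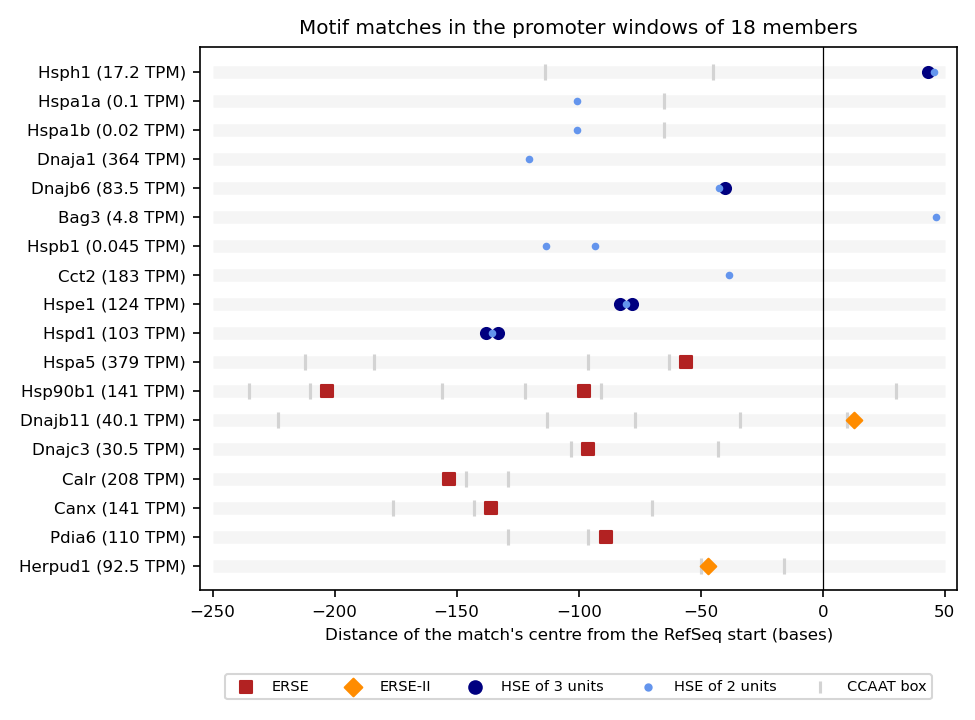
Position of motif matches relative to the RefSeq start (0, vertical line; bases) in the promoter windows of the 18 genes with an ER stress element (ERSE), ER stress element II (ERSE-II) or heat shock element (HSE), with each gene's mean TPM in brackets; 1 window per gene is drawn. ER stress elements lie upstream of the start in 6 genes, and the heat shock matches of Hspa1a and Hspa1b lie at the same distance.

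The only test these data allow compares the 2 technical libraries with each other, not conditions. Each gene with 10 or more reads in all entered an exact binomial test, two-sided, with p-values adjusted by the Benjamini-Hochberg method over 17271 genes. Of the 46 genes, 43 were tested, the exceptions being Hspa1a, Hspa1b and Hspb1. The test called 17 of the 43 (39.5%), beside 24.3% of all genes tested. Among genes with 1000 or more reads, which the test resolves more finely, it called 13 of 35 in the set (37.1%) and 39.5% of all. Of the 17, 8 were higher in library 2 (background 12.7% of all genes tested) and 9 in library 1 (background 11.6%). The differences were small: the median size of the log2 ratio between libraries was 0.093 for the 43 genes and 0.23 for all genes tested. Within the better-read genes these medians were 0.073 and 0.11.

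Hsp90ab1 had the clearest gap, with 15023 reads in library 1 and 17360 in library 2, a log2 ratio of 0.25 (library 2 over library 1; adjusted p = 2.3e-52). Pdia3 (log2 ratio 0.12, adjusted p = 6.3e-13), Cct7 (0.18, adjusted p = 3.1e-09) and Hspa8 (0.05, adjusted p = 3.0e-06) were also higher in library 2, as were Dnajb9, Canx, P4hb and Pdia6 by reads. Hspa5 was higher in library 1 (log2 ratio -0.10, adjusted p = 2.7e-05). The largest ratios belonged to genes with few reads, and all were toward library 1: Hspa2 (-0.76, adjusted p = 0.0055), Ern1 (-0.69, adjusted p = 0.034) and Eif2ak3 (-0.58, adjusted p = 0.0057). The sensors Ern1 and Eif2ak3 thus had larger ratios in size than the other 5 genes of their group, from few reads. Neither was called by edgeR's exact test at a dispersion of 0.01 (adjusted p = 0.38 and 0.35). Neither passed in the whole-number counts (exact binomial test, adjusted p = 0.28 and 0.13). Tcp1, Cct4, Dnaja1, Hsph1 and Xbp1 completed the 9. In 3 of the 17 called genes TPM ran against the reads: P4hb was lower in library 2 by TPM, and Tcp1 and Dnaja1 were higher. Of the TRiC subunits, Cct7 was called toward library 2, Tcp1 and Cct4 were called toward library 1, and the other 4 were not called; Cct5 (adjusted p = 0.053) passed the threshold under TMM sizes, DESeq2 sizes and a minimum of 100 reads (adjusted p from 0.034 to 0.042).

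The calls rest on counting error alone. With a dispersion of 0.01, which allows for some spread between libraries, edgeR's exact test called 0 of the 43 genes. An unadjusted p under 0.05 was found for 3 of the 43, beside 2004 of all 17271 genes tested. Fewer of all genes were called too, with this test and in the whole-number counts (given in the last section). The whole-number counts came to 25.7% of the estimated reads over all matched genes, so they resolve less. In them 2 were called, Hspa2 and Hsph1, both toward library 1, as with the estimated reads. The log2 ratios of the 3 clearest genes toward library 2 were also smaller there, at 0.03 for Hsp90ab1 (3797 and 3882 counts; adjusted p = 0.64), 0.01 for Pdia3 and 0.04 for Cct7.

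**Figure D3:**
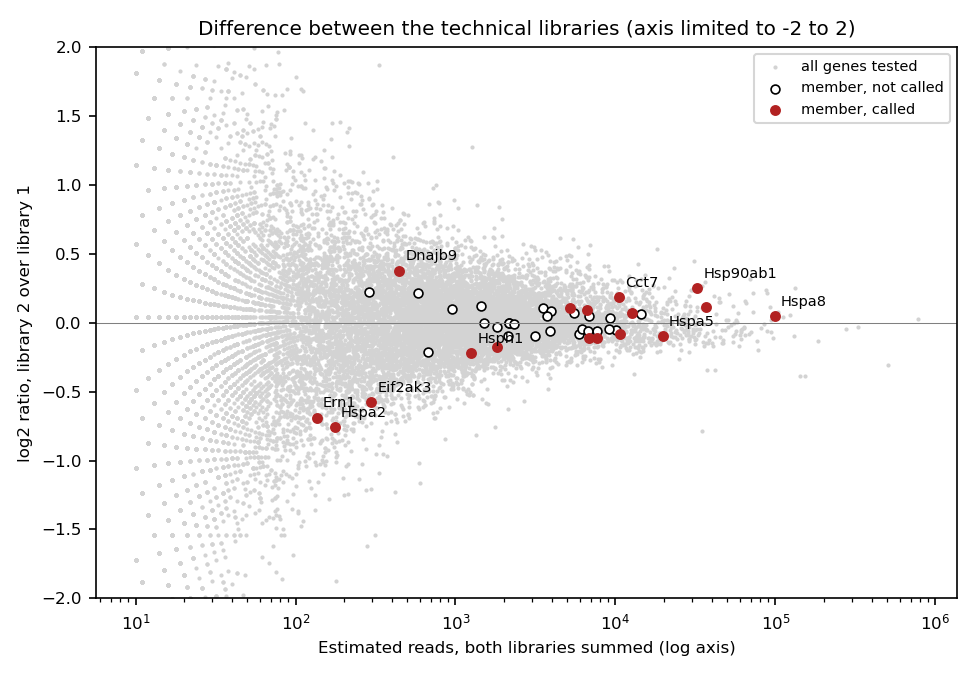
Log2 ratio of library 2 over library 1 against the estimated reads of both libraries (log axis) for all genes tested (grey) and the 43 tested genes of the set (red: called, open: not called); genes beyond 2 in either direction are not drawn. Most genes of the set lie close to 0, Hsp90ab1 at 0.25 is the clearest of the well-read genes, and Hspa2, Ern1 and Eif2ak3 lie low at few reads.

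Chaperone genes have many processed pseudogenes, so the level given for several of these genes may depend on how reads from near-identical sequences were assigned. For each gene the transcript with most reads in library 1 was taken as leading. That of Hspa8, Hspa8-202, shared 86.3% of its 50-base words with other genes, and 80.6% with the pseudogene Gm15459 alone. The shares were 65.6% for Hsp90aa1, 44.8% each for Hspd1 and Hspe1, 41.9% for Dnajb6 and 24.5% for Dnaja1 (Dnaja1-204). The shorter Dnaja1-205 and Dnaja1-206, which lead that gene by TPM, shared 83.2% and 73.4%. The remaining 37 genes with 10 or more reads shared under 20%, and 23 of them shared none. The authors' second table, of whole-number counts on an older annotation, gave Hspa8 522 and 515 counts where the first table had 49429 and 49624 estimated reads. Whole-number counts came to 1.05% of the estimated reads for Hspa8, 3.71% for Dnajb6, 6.13% for Dnaja1, 8.49% for Hsp90aa1, 12.4% for Hspe1 and 21.2% for Hspd1. For the 37 genes that shared less, the figure ran from 13.5% (Canx) to 80.6% (Hspa4), with a median of 50.2%. Over all genes matched between the annotations the figure was 25.7%. The 6 genes that shared most thus had a median of 7.31%, though Canx and Pdia3, which share no words, were also low, at 13.5% and 16.9%. Across the 43 genes Spearman's rho between the 2 measures was -0.29, a description over genes that share libraries and annotation. How the whole-number table treated reads that map to several genes is not stated in any source used, and its part in these differences was not tested.

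**Figure D4:**
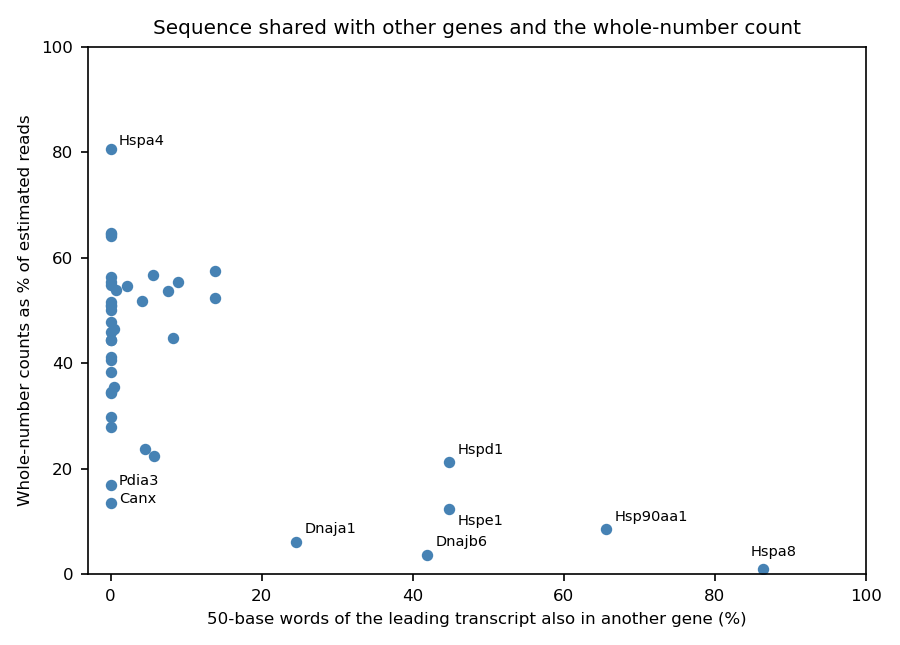
Whole-number counts as a percentage of estimated reads against the percentage of 50-base words of the leading transcript that occur in another gene, for the 43 genes with 10 or more reads (1 point each). The 6 genes with 20% or more shared words lie between 1.05% and 21.2%, and genes with no shared words spread from 13.5% to 80.6%.

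The ratios that involve these genes also differed between the counts used. In whole-number counts, unscaled by length, Hspa5 was 6.53 times Hspa8 instead of 0.20 times by estimated reads, and Hsp90ab1 was 13.4 times Hsp90aa1 instead of 4.81 times. Pseudogenes held some estimated reads of their own: Gm15459 had 1595 and 1709, Gm15542, the pseudogene nearest to Dnaja1, had 1520 and 1530, and Gm12346, nearest to Hsp90aa1, had 213 and 66.9. The level of Hspa8 thus differed widely between the counts used, and the part of read assignment in this was not tested. The leading transcripts of Hspa5, Pdia4, Cct2 and Cct5 share no words with another gene.

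Transcript values, model estimates from short reads, mostly gave each gene 1 leading coding transcript. Of 39 genes with several annotated transcripts and 10 or more reads, 36 had the same leading transcript by TPM in both libraries, and in 35 of these it was protein-coding. Xbp1-201 and Hspa5-202 (81.2% and 80.2% of TPM) are examples. In some genes short non-coding transcripts took a large share of TPM and a small share of reads. For Hspa4, the retained-intron transcript Hspa4-202 held 47.4% and 51.7% of TPM but only 87.0 and 98.6 reads, against 521 and 483 reads for the coding Hspa4-201. In Pdia3, the coding Pdia3-201 held 51.97% and 49.62% of TPM, and Pdia3-203, annotated to undergo nonsense-mediated decay, 37.8% and 39.2%, beside 82.9% and 14.9% of reads in library 1. The coding Hsp90ab1-201 held 69.6% and 67.3% of the TPM of Hsp90ab1.

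Elsewhere the split differed between the libraries. Cct7-202, annotated to undergo nonsense-mediated decay, held 31.0% of the TPM of Cct7 in library 1 and 41.0% in library 2, and the coding Cct7-203 held 29.8% and 17.9%. Cct8 was led by the coding Cct8-203 in library 1 and by Cct8-209, annotated to undergo nonsense-mediated decay, in library 2, and Dnaja1 by Dnaja1-205 and by Dnaja1-206. The total of each of these 3 genes differed less between the libraries than these shares did.

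**Figure D5:**
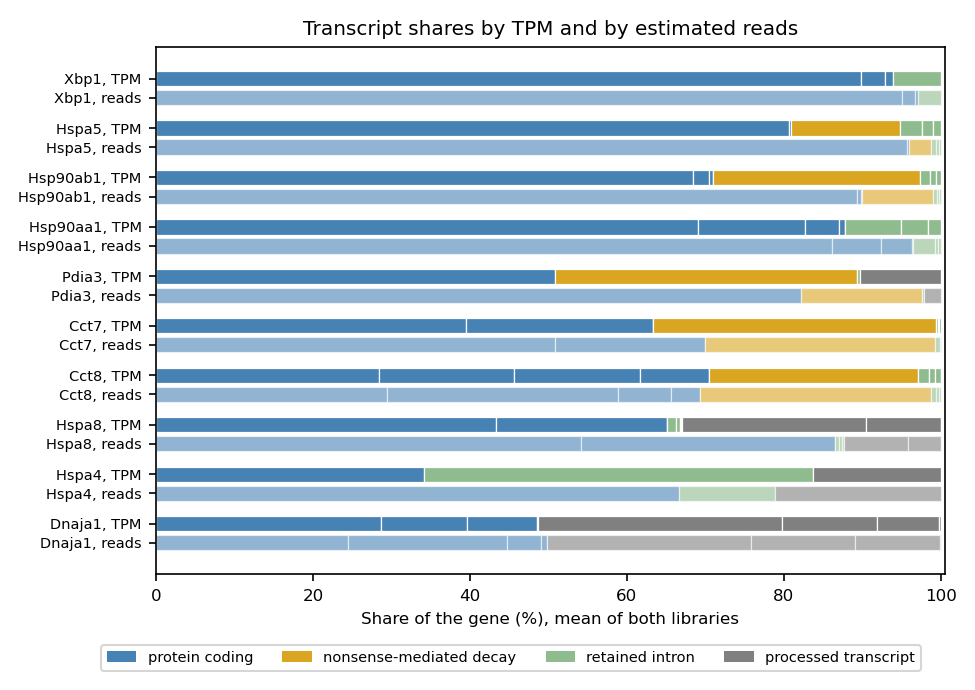
Share of each annotated transcript in its gene (%, mean of both libraries) by TPM (full colour) and by estimated reads (pale) for 10 genes, coloured by annotated type; white lines separate transcripts. Xbp1 and Hspa5 are mostly 1 coding transcript, whereas Hspa4 is led by a retained-intron transcript by TPM and by a coding one by reads.

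Of 146 further genes of the same pathways in 7 lists, 127 reached 1 TPM. The test between libraries called 41 of 135 tested (30.4%, beside 24.3% of all genes tested), 27 toward library 2 and 14 toward library 1. Among protein-coding genes at 1 TPM or more it called 30.5%, a like share. Over all genes tested 12.7% were called toward library 2 and 11.6% toward library 1, and the lists themselves were not tested, so their split by direction is a description. In the cytosolic list (34 genes; 8 called toward library 2 and 2 toward library 1 of 33 tested), the J protein Dnajc8 (244 ± 6.12 TPM), the Hsp90 cochaperone Ptges3 (p23; 218 ± 3.04 TPM) and Dnajc7 (207 ± 38.9 TPM) were highest. Dnajc7 was called toward library 2 (log2 ratio 0.49, adjusted p = 1.1e-30). Hspa1l, which lies beside Hspa1a and Hspa1b, had 0 reads in library 1 and 13.3 in library 2 (exact binomial test, adjusted p = 0.0019). Its whole-number counts were 4 and 12, so the size of its difference depends on the count used. The small heat shock protein Hspb8 had no reads. Of the called genes, Ppid had the largest ratio toward library 1 (log2 ratio -0.13, adjusted p = 0.046). In the list of TRiC, prefoldin and phosducin-like proteins (0 called toward library 2 and 3 toward library 1 of 10), the prefoldin subunit Pfdn5 led at 983 ± 29.3 TPM. The TRiC subunit Cct6a was at 138 ± 11.4 TPM, within the band of the other subunits, and its relative Cct6b at 0.58 ± 0.092 TPM. Pdcl3 was at 118 ± 4.82 TPM and Pdcl, with the largest called ratio toward library 1, at 22.1 ± 2.26 TPM.

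In the list of mitochondrial quality control (12 genes; 2 called toward library 2 and 1 toward library 1 of 11), the proteases Yme1l1 and Clpp and the mitochondrial Hsp90 Trap1 led at 88.9 ± 1.95, 64.7 ± 0.14 and 46.6 ± 2.35 TPM. Atf5, a factor of the mitochondrial stress response, had 0 and 1 read, and Dnlz was at 5.73 ± 1.13 TPM. Dnaja3 and Hscb had the largest called ratios toward libraries 2 and 1 (log2 ratios 0.27 and -0.35). In the list of ER folding and oxidation (25 genes; 4 and 4 of 24), the proline isomerase Ppib led at 416 ± 8.96 TPM, followed by Tmx1 (91.5 ± 16.9 TPM) and Sdf2 (79.7 ± 3.92 TPM). Clgn, the calnexin of the testis, and Pdia5 were lowest at 0.19 ± 0.11 and 0.24 ± 0.34 TPM. Creld1 and Uggt2 had the largest called ratios in each direction (0.88 and -1.81), both from fewer than 100 reads in any library. In the list of ER-associated degradation (22 genes; 2 and 2 of 22), the selenoproteins Selenok and Selenos (279 ± 14.7 and 143 ± 1.03 TPM) and the segregase Vcp (120 ± 13.8 TPM) led. Derl3, one of the plasma cell markers, was lowest at 0.58 ± 0.085 TPM, next to Edem3 at 2.90 ± 0.064 TPM, and Os9 and Herpud2 had the largest called ratios (0.57 and -0.38).

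In the list of UPR signalling (16 genes; 3 called toward library 2 and 1 toward library 1 of 13), Tmbim6, an ER membrane protein that restrains IRE1, led at 709 ± 88.0 TPM. Rtcb, the ligase that joins the ends of Xbp1 mRNA after IRE1, was at 117 ± 4.64 TPM and Creb3 at 79.2 ± 0.53 TPM. Ern2, the IRE1 of mucosal epithelium, had no reads in either library, as did Creb3l3 and Creb3l4, factors best known from liver and from prostate and testis. The proteases that cleave ATF6, Mbtps1 and Mbtps2, had the largest called ratios in each direction (0.30 and -0.26). The list of the integrated stress response, in which Atf4 acts, held 27 genes, with 8 called toward library 2 and 1 toward library 1 of 22. The initiation factor Eif2s1 (168 ± 2.43 TPM), the tRNA synthetase Sars (132 ± 25.5 TPM) and the folate enzyme Mthfd2 (110 ± 0.0071 TPM) led this list. Chac1 and Vldlr, both raised by this response in many cells, were at 0.025 ± 0.035 and 0.025 ± 0.0071 TPM, from at most 1 read in a library. Cebpg and Sesn2 had the largest called ratios (0.51 and -0.97).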

How the data were processed

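Per the file headers and the labels, the authors quantified both libraries on mm10 with GENCODE M21. They deposited an expected count (estimated reads, which need not be whole), TPM and FPKM for each gene. Their deposited transcript tables give each transcript's percent of its gene's TPM, and the deposited posterior SD of each count, a score here, was not printed. A deposited table of whole-number counts used GENCODE M4. Neither table's quantification tool is stated in the sources used here. Reads were taken to be 50 bases long, from the gap between length and effective length.

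Expected counts were rounded, and genes with a summed count of 10 or more entered an exact binomial test (two-sided) against library 2's 49.3% share of gene reads (Benjamini-Hochberg, threshold 0.05). Log2 ratios add 0.5 reads to each count. Genes were matched by symbol to GENCODE M21. The depth was 15076048 and 14635787 rounded gene reads, and nothing shows that the 2 technical libraries were separate cultures or animals. Alternatives were TMM (edgeR 4.0.16) and DESeq2 1.42.0 sizes, an edgeR exact test, other count filters, the whole-number counts, FPKM, reads unscaled by length, protein-coding TPM and each library alone; group shares by whole-number counts were added after seeing the data. Simulated libraries were drawn with Poisson counting error only, the error that the test assumes, and 17306 genes could be tested. Changes of 1.25-fold were called in 38.3% of cases, 1.5-fold in 54.2%, 2-fold in 66% and 4-fold in 83.7%. Of the 17112 genes left as they were, 6 were called. So few calls follow from that setting, and the rates do not describe the real libraries, where 24.3% of all genes tested were called. R 4.3.3, Python 3.11.15, numpy 2.4.6, pandas 2.3.3, scipy 1.17.1 and matplotlib 3.10.9 were used.

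The 46 genes, the 7 further lists and the markers were chosen with earlier results of these data known. Of each further list the 3 highest and 2 lowest genes by mean TPM, all genes with no reads, and the largest called difference in each direction are named. Shared words are all 50-base stretches of a transcript that occur in a GENCODE M21 transcript of another gene.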

Additional observations from a re-analysis of the deposited data

How the results depend on the processing

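The count of genes that differed between the libraries (4198) stayed within 1.5 times under TMM sizes, DESeq2 size factors, a minimum of 100 reads and no filter. It fell to 496 of 17271 genes with edgeR's exact test at a dispersion of 0.01 and to 1092 in the whole-number counts. The whole-number counts held 3.47e+06 reads in each library over 22195 matched genes, beside 15076048 and 14635787 estimated reads over 55536 genes. Their numbers of calls are thus not at a like depth or gene set. The 17 of the set became 10 with no filter beyond 1 read, 0 with edgeR's exact test and 2 in the whole-number counts. With edgeR's exact test 3 of the 43 had an unadjusted p under 0.05, beside 2004 of the 17271 genes tested. TMM kept all 17, and DESeq2 sizes kept 16, losing Xbp1 (adjusted p = 0.050, exact binomial test). Hspa8 alone of the 17 changed direction, in the whole-number counts (log2 ratio -0.02). By estimated reads unscaled by length, the ratios were 4.81 for Hsp90ab1 to Hsp90aa1, 2.53 for Hspd1 to Hspe1 (reversed), 0.20 for Hspa5 to Hspa8, 0.46 for Hsp90b1 to Hspa5 and 0.29 for Ddit3 to Atf4. By whole-number counts they were 13.4, 4.33 (reversed), 6.53 (reversed), 0.78 and 0.25, and 1.71 for the highest to the lowest TRiC subunit. A mean ratio of Hspa8 to Hspa1a plus Hspa1b could not be computed, since library 1 had no count for the pair. In library 2 Hspa1a had 1 count and Hspa1b 0, beside 515 for Hspa8. Neither estimated reads nor whole-number counts are scaled by length, and other causes were not tested. The shares of the groups by estimated reads were 27.7% (cytosolic Hsp70 and Hsp110), 21.015% (ER lectins and isomerases), 11.7% (cytosolic Hsp90), 10.2% (ER Hsp70 and Hsp90), 6.01% (J proteins), 17.2% (TRiC), 3.15% (mitochondrial) and 0.47% (Hsf1, Hspb1 and Bag3). By whole-number counts, an alternative chosen after seeing the data, they were in the same order 3.40%, 21.9%, 11.2%, 17.2%, 4.57%, 32.2%, 3.73% and 0.97%, and 4.803% for UPR sensors, factors and Herpud1. Rescaling TPM to protein-coding genes moved 40 of 47 levels by more than their SD. No paired analysis was possible because there is 1 group only, with no second group that shares its replicate numbers. Genes with few reads, such as Hspa1a, Hspa1b, Hspb1 and Ern1, are limited by depth.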
